A study of Mus musculus with 69 samples.

Results

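The 8 kidney libraries collected at Zeitgeber time (ZT) 4 were compared, 4 from young and 4 from nephritic NZB/W F1 mice, taken by their time label ZT4 and the diagnosis given to each library. They are 8 of the 57 young and nephritic libraries fitted together and of 69 libraries in the series. NZB/W F1 is a cross of New Zealand Black and New Zealand White mice in which autoantibodies lead to an immune complex nephritis resembling human lupus nephritis. Young mice were 12 weeks old. Nephritic mice were 30 to 45 weeks old, were killed some weeks after heavy proteinuria began, and had not received the remission-inducing drugs given to other mice of the series. ZT0 is lights on, so ZT4 falls early in the rest phase of the mouse. Whole perfused kidneys were used, so every level is a sum over all cells of the organ, and the disease and the greater age of the nephritic mice cannot be told apart. The comparison asks how nephritis alters kidney transcripts at this hour, and which of those differences are unlike the same contrast at ZT0, ZT8, ZT12, ZT16 and ZT20.

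In immune complex nephritis, leucocytes enter the kidney, tubule cells de-differentiate and divide, interstitial matrix accumulates, and the transport and energy genes of tubules are commonly lowered. A healthy kidney also follows the time of day. The activators encoded by Arntl (Bmal1), Clock and Npas2 drive the repressor genes Per and Cry, while Nr1d1 and the Ror genes act back on Arntl. Through this loop and through feeding, tubular transport, sterol synthesis and energy metabolism change over the day, so a disease contrast made at a single hour contains both a shift in level and a shift in timing.

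The 8 libraries held 25617028 to 35583849 counts each, and 17521 genes with at least 100 counts over the 57 libraries were tested. Levels are given as CPM, counts scaled to the size of each library, for mice 1 to 4 of each group, where the numbers only name the mice. Differences are log2 values, nephritic minus young, with their standard error (SE), from edgeR's quasi-likelihood test. A gene is said to have risen or fallen where its Benjamini-Hochberg adjusted p was at most 0.05, and p-values measure the spread between these libraries. Proximal tubule markers were abundant in all 8 libraries, with Slc34a1, a phosphate transporter, at 2410 CPM or more. Nephritic mice 2 and 3 were the closest of all 1596 pairs of libraries, with a median chi-square per gene of 0.862 against 2.52 to 3.18 for the other nephritic pairs at ZT4. They differed by more than counting noise (mean chi-square per gene 3.58) and were counted as 2 libraries, although the labels do not say that they came from separate mice. Young mouse 4 carried much liver RNA, with the summed CPM of 17 liver genes reaching 2923 against 71.4 in the lowest young mouse and 119 to 247 in the nephritic mice. Lcn2, an injury marker, was at 60.1 to 146 CPM in the nephritic mice of ZT4, inside the range of 4.78 to 710 CPM in nephritic mice of other times. At each other time the lowest nephritic mouse, at 4.78 to 15.7 CPM, was below the highest young mouse of those times, at 17.3 CPM. The nephritic mice of ZT4 were all above that young level, whereas those of other times were mixed.

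Nephritic kidneys at ZT4 differed from young kidneys in 5313 of 17521 genes (30.3%), of which 2442 rose (13.9%) and 2871 fell (16.4%). The genes that rose had a median log2 difference of 1.19, and 1449 of them had a difference of at least 1, a doubling. The genes that fell had a median of -0.46, and 273 of them had a difference of -1 or lower. The median over all genes tested was -0.03. The 4 young and 4 nephritic mice did not overlap for 4958 of the 5313 genes (93.3%), against 44.3% of all genes tested (20.4% higher and 23.9% lower). With TMM replaced by DESeq2's size factors the split was 2715 risen and 2318 fallen, and without 11 libraries of ZT0 and ZT12 that were set apart by their title prefixes it was 3598 and 2678. Leaving out any nephritic mouse of ZT4 left 1634 to 1733 fallen genes. The genes that rose had a median transcript length of 3560 bases and those that fell of 2549, against 3139 for all genes tested, and with an offset for length and GC content 2449 rose and 3409 fell.

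At the other times the same contrast passed for 6916 genes at ZT0 (39.5%), 641 at ZT8 (3.66%), 8757 at ZT12 (50.0%), 3104 at ZT16 (17.7%) and 960 at ZT20 (5.48%). The number of mice differed between these times, with 7 young and 7 nephritic at ZT0 and 4 and 3 at ZT20, so these counts are not effect sizes. ZT4 and ZT8 had equal numbers of mice, and the count at ZT4 was the larger. Their nephritic mice also differed in the injury marker Lcn2, with medians of 82.6 CPM at ZT4 and 22.6 CPM at ZT8. The part of injury in the gap between these counts was not tested. Over the mean of the other 5 times 10143 genes passed (57.9%). Of the 2442 genes that rose at ZT4, 1977 were also higher over the mean of the other 5 times, 375 passed at each of the 5 and 428 at none of them. Of the 2871 that fell, 1781 were also lower over the other times, 4 passed at each of the 5 and 1029 at none. Across 14175 genes of at least 1 CPM, the ZT4 difference correlated with that of ZT12 (Pearson r = 0.818), ZT8 (0.798), ZT20 (0.742), ZT16 (0.740) and ZT0 (0.630). These are descriptions across genes, which are not independent of each other.

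**Figure D1:**
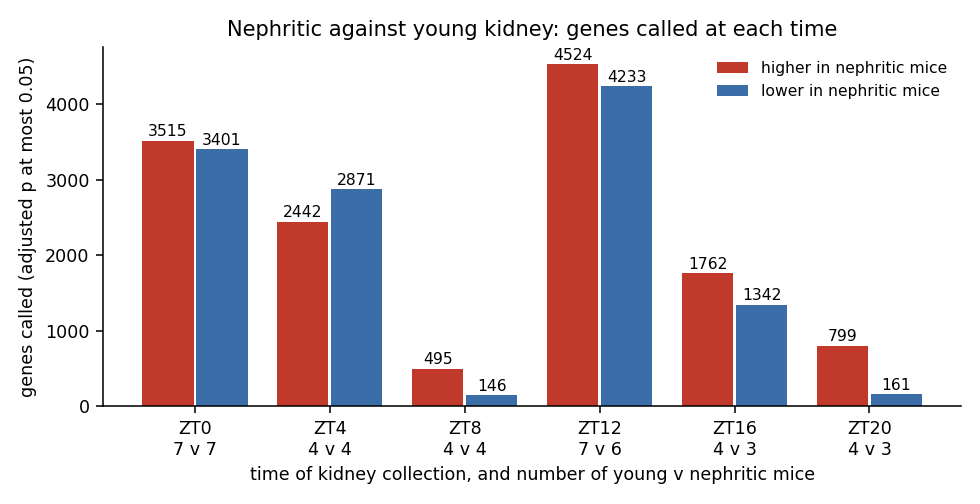
Genes that passed the test in nephritic against young kidney at each of the 6 times (y axis, number of genes), as bars for higher and lower genes, with the numbers of young and nephritic mice under each time. ZT4 had 2442 higher and 2871 lower genes with 4 mice in each group, and ZT8, also with 4 and 4, had 495 and 146. The nephritic mice of ZT8 had a lower median of the injury marker Lcn2 than those of ZT4.

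The 8 largest rises at ZT4 included genes of B cells, macrophages and monocytes. More cells of a type and more RNA in each cell cannot be told apart in whole kidney, nor can fewer cells and less RNA. Il1f6, an interleukin-1 family cytokine of epithelia, had no count in any young mouse and 4.02, 1.98, 2.39 and 2.91 CPM in the nephritic mice, at least 26.8-fold above a floor of 3 counts per library. Fcrl5, an Fc receptor-like gene of B cells, was likewise at 0 in young mice and at 0.628, 3.46, 2.41 and 1.51 CPM in nephritic mice, at least 19-fold higher. Epha6, an ephrin receptor, was at 0 in young mice and at 1.14, 0.975, 0.822 and 1.34 CPM in nephritic mice, at least 10.2-fold higher. Separation of the groups was a condition for naming these 8 genes and is no added result. Clec4e, which encodes the macrophage receptor Mincle, had 0.0341, 0.0669, 0 and 0.0327 CPM in young and 3.71, 3.82, 4.32 and 6.27 CPM in nephritic mice, a log2 difference of 6.87 ± 0.75 (adjusted p = 1.41e-08). Ms4a1, encoding CD20 of B cells, rose by 6.17 ± 1.00 (adjusted p = 1.11e-05) on the log2 scale and Pou2af1, a B cell transcription coactivator, by 6.03 ± 0.87 (adjusted p = 1.46e-06). In both genes nephritic mouse 1 was the lowest nephritic mouse and mice 2 and 3 the highest. Glycam1, a ligand of L-selectin found on high endothelial venules, rose by 6.10 ± 1.11 (adjusted p = 5.71e-05), and Cd300e, a receptor of monocytes, by 5.88 ± 0.69 (adjusted p = 3.6e-08). None of these 8 genes passed the test of a difference between ZT4 and the other times.

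Lymphoid and myeloid markers rose together. All 5 B cell markers, 4 of 5 tested T cell markers, all 6 macrophage markers and 3 of 6 plasma cell markers rose, with none lower. Of all genes tested 13.9% rose. Jchain, the joining chain of secreted IgA and IgM, was at 2.29, 4.11, 3.97 and 3.01 CPM in young mice and 62.4, 278, 252 and 126 CPM in nephritic mice (5.75 ± 0.82 (adjusted p = 1.38e-06)). The lowest nephritic mouse was far above the highest young mouse, and nephritic mice varied among themselves more than young mice did. The B cell receptor component Cd79a was at 0.273, 0.468, 0.241 and 0.131 CPM and 2.65, 19.4, 16.8 and 7.22 CPM, respectively (5.35 ± 0.87 (adjusted p = 1.13e-05)). Adgre1, the gene of the macrophage protein F4/80, was at 2.12, 3.14, 2.65 and 3.27 CPM and 22.9, 27.2, 24.7 and 16.8 CPM (3.03 ± 0.40 (adjusted p = 4.1e-07)). The groups did not overlap in either gene. Among neutrophil markers only Csf3r, the granulocyte colony-stimulating factor receptor, passed of 4 tested (2.75 ± 0.39 (adjusted p = 1.26e-06)).

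Tubular injury and inflammatory genes rose as well. Of 14 genes of tubular injury and repair 10 rose, against 13.9% of all genes, and none fell. Their median log2 difference was 1.86 at ZT4 and 1.64 over the other times. Lcn2, which encodes the secreted iron-siderophore binder NGAL, was at 3.17, 3.38, 4.25 and 3.01 CPM in young mice and 92.7, 60.1, 72.5 and 146 CPM in nephritic mice (4.75 ± 1.10 (adjusted p = 0.00105)). Vcam1, an adhesion molecule also made by injured tubule cells, was at 5.5, 7.53, 7.1 and 7.43 CPM and 125, 76.2, 69.6 and 41.8 CPM (3.51 ± 0.66 (adjusted p = 9.45e-05)). Every nephritic mouse exceeded every young mouse in both. Cd44, a hyaluronan receptor, rose by 3.52 ± 0.58 (adjusted p = 1.48e-05) and the intermediate filament gene Vim by 1.83 ± 0.27 (adjusted p = 2.3e-06). The 6 inflammatory genes that the study itself followed all rose, with a median of 3.18. The study had reported them on samples of this series, so they are not independent evidence of a direction. Among them Il1b was at 0.683, 1.07, 1.44 and 0.917 CPM in young mice and 14.4, 11.4, 10.7 and 11.4 CPM in nephritic mice (3.55 ± 0.51 (adjusted p = 1.28e-06)), and Tnf, at lower level, rose by 3.23 ± 0.50 (adjusted p = 4.78e-06).

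Chemokines and their receptors gave 27 of 31 genes higher, against 13.9% of all genes, and none lower, with a median of 2.43. The same share applies to the lists that follow. Ccl12, a monocyte attractant, was at 0.341, 0.301, 0.281 and 0.393 CPM in young mice and 4.99, 6.01, 5.8 and 4.9 CPM in nephritic mice (4.02 ± 0.56 (adjusted p = 9.74e-07)). Ccl7, another monocyte attractant, rose by 4.09 ± 0.65 (adjusted p = 7.46e-06), and the fractalkine receptor gene Cx3cr1 by 2.59 ± 0.37 (adjusted p = 1.53e-06). No young mouse reached the lowest nephritic mouse in any of the 3. Interferon-stimulated genes gave 26 of 28 higher, none lower and a median of 1.51, among them the oligoadenylate synthetase genes Oas3 (3.88 ± 0.54 (adjusted p = 9.74e-07)) and Oas2 (2.66 ± 0.38 (adjusted p = 1.16e-06)) and the antiviral GTPase gene Mx1 (2.54 ± 0.38 (adjusted p = 3.17e-06)). MHC class II presentation gave 10 of 11 higher and a median of 1.83. Its lysosomal protease Ctss was at 7.58, 12.8, 10.7 and 12.6 CPM in young mice and 85.6, 104, 99.7 and 77.1 CPM in nephritic mice (3.06 ± 0.40 (adjusted p = 3.1e-07)), and Ciita, the master transactivator of class II genes, rose by 2.21 ± 0.33 (adjusted p = 2.58e-06). Of 18 complement genes 11 rose and none fell, with C1qb, a chain of the classical pathway's recognition molecule, at 12.3, 15.6, 14.3 and 16.4 CPM and 76.4, 96.8, 91.6 and 64.4 CPM (2.49 ± 0.37 (adjusted p = 2.23e-06)). In none of these lists, apart from the complement regulator Cd55, did a member's ZT4 difference pass against the other times.

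Genes of cell division and matrix followed the same direction. Of 28 proliferation genes 25 rose and none fell, with a median of 1.79. Mki67, the gene of the Ki-67 antigen of cycling cells, was at 3.96, 3.41, 3.37 and 1.7 CPM in young mice and 22.3, 35.2, 29.5 and 33.3 CPM in nephritic mice (3.27 ± 0.44 (adjusted p = 5.94e-07)), and Top2a, a topoisomerase of dividing cells, rose by 3.03 ± 0.47 (adjusted p = 4.8e-06). Of 29 matrix genes 21 rose and none fell, with a median of 1.15. Loxl2, a collagen cross-linking oxidase, was at 14.9, 10.4, 10.7 and 9.92 CPM and 44, 38.8, 37.2 and 46.6 CPM (1.86 ± 0.30 (adjusted p = 1.15e-05)), and Ctgf, a profibrotic growth factor gene, was at 21, 36, 37.9 and 32 CPM and 130, 72.8, 76.6 and 106 CPM (1.60 ± 0.29 (adjusted p = 4.8e-05)). Neither gene overlapped between the groups. Of 25 immediate early genes 13 rose and none fell, with a median of 0.90, and among them Socs3, an inhibitor of cytokine signalling, was at 3.65, 3.71, 3.61 and 4.12 CPM against 43.2, 31.3, 34.2 and 35.5 CPM (3.25 ± 0.63 (adjusted p = 0.000152)). Podocyte markers gave 2 of 5 higher, endothelial markers 2 of 5 and mesenchymal markers 3 of 5, against 13.9% of all genes. The endothelial markers had a median of -0.01, with 3 of 5 below zero, and 3 were lower over the other times. Their 2 risen members, Pecam1 and Cdh5, lost the call without young mouse 1 or 4 or nephritic mouse 1. Nphs1, the nephrin gene of the slit diaphragm, rose by 1.03 ± 0.34 (adjusted p = 0.0197), though not without nephritic mouse 2.

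**Figure D2:**
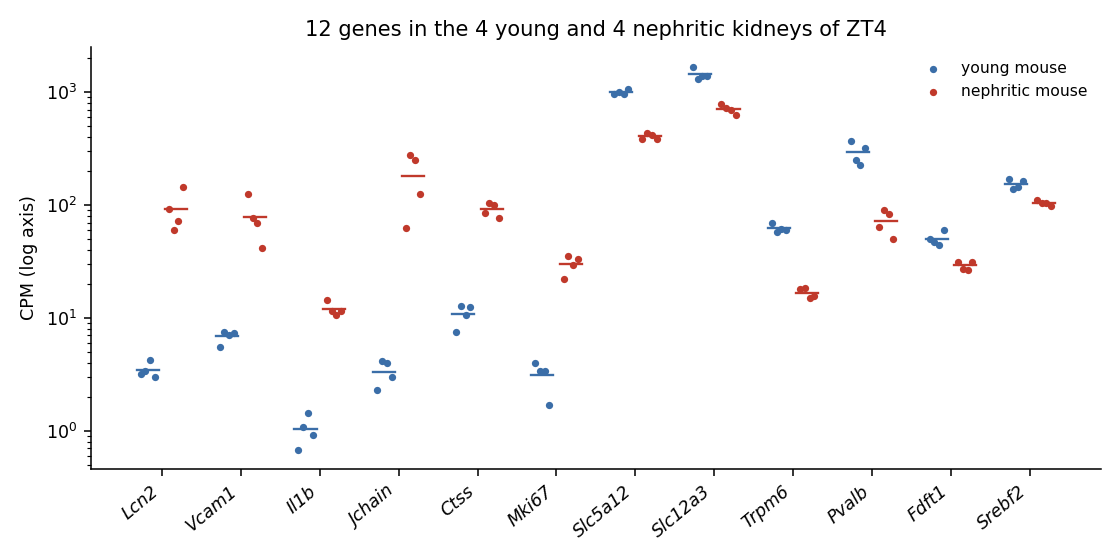
Levels of 12 genes in each mouse at ZT4 (y axis, CPM on a log axis), with young mice in blue, nephritic mice in red and a bar at each group's mean. The groups do not overlap for any of the 12, which span rises such as Jchain (2.29 to 4.11 against 62.4 to 278 CPM) and falls such as Trpm6 (57.8 to 70.2 against 15.1 to 18.3 CPM).

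Most respiratory chain genes fell at ZT4, and smaller shares of the gluconeogenesis and proximal tubule transport lists did. Of 30 respiratory chain genes 24 fell, against 16.4% of all genes, with none higher, all 30 below zero and all 30 without overlap of the mice, against 23.9% of all genes lower without overlap. Their median was -0.55. These are short genes, with a median transcript length of 1716 bases, and with the offset for length and GC content 21 of the 30 fell. Atp5o, a subunit of ATP synthase, was at 584, 549, 480 and 573 CPM in young mice and 310, 359, 352 and 354 CPM in nephritic mice (-0.67 ± 0.16 (adjusted p = 0.00115)), and Ndufb5, a subunit of complex I, fell from 314, 303, 266 and 347 CPM to 164, 202, 201 and 187 CPM (-0.71 ± 0.17 (adjusted p = 0.00124)). Over the other times 29 of the 30 were lower, with a median of -0.33, and no member's ZT4 difference passed against theirs. Gluconeogenesis genes gave 4 of 12 lower and none higher, 8 not passing, including Mdh1, the cytosolic malate dehydrogenase, at 1728, 1753, 1640 and 1816 CPM and 944, 1032, 1033 and 1017 CPM (-0.79 ± 0.22 (adjusted p = 0.0053)). Over the other times 9 of the 12 gluconeogenesis genes were lower. Proximal tubule transporters gave 8 of 31 lower at ZT4, against 16.4% of all genes, and none higher, with a median of -0.54 and 23 not passing. Over the other times 30 of the 31 were lower, against 31.7% of all genes, with a median of -0.66. Slc5a12, a lactate transporter, was at 969, 1012, 976 and 1080 CPM in young mice and 387, 433, 423 and 386 CPM in nephritic mice (-1.31 ± 0.29 (adjusted p = 0.000675)). Slc5a2, which encodes the glucose transporter SGLT2, fell (-1.02 ± 0.31 (adjusted p = 0.0113)), as did Slc6a19, a neutral amino acid transporter (-1.15 ± 0.34 (adjusted p = 0.00974)). None of the 3 overlapped between groups. Slc5a2 lost the call without nephritic mouse 4.

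Most lipid synthesis genes fell, whereas most genes of fatty acid oxidation did not pass at ZT4. Of 27 sterol and fatty acid synthesis genes 16 fell and none rose, with a median of -0.57. Over the other times 25 of the 27 were lower, against 31.7% of all genes, with a median of -0.50. Fdft1, squalene synthase, was at 49.9, 47.1, 44.2 and 60.6 CPM in young mice and 31.2, 27.3, 26.8 and 31.5 CPM in nephritic mice (-0.79 ± 0.15 (adjusted p = 0.000107)). Srebf2, the transcription factor gene of sterol synthesis, was at 171, 138, 146 and 162 CPM and 111, 104, 105 and 97.6 CPM (-0.56 ± 0.10 (adjusted p = 1.99e-05)). The groups were apart in both. Of 38 fatty acid oxidation genes 7 fell and 1, the fatty acid uptake gene Cd36, rose (0.67 ± 0.25 (adjusted p = 0.0337)), near the 16.4% of all genes that fell. Acaa1a, a peroxisomal thiolase, fell from 301, 262, 235 and 273 CPM to 171, 178, 184 and 163 CPM (-0.62 ± 0.13 (adjusted p = 0.00028)). Cd36 did not pass without young mouse 1, 2 or 3 or nephritic mouse 4. The list median was -0.38 at ZT4 and -0.34 over the other times, where 29 of the 38 passed as lower. Of 22 genes of glycolysis and the pentose phosphate pathway 10 fell and 2 rose, and these 2 included the leucocyte hexokinase gene Hk3 (2.30 ± 0.42 (adjusted p = 5.36e-05)).

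Some genes of the distal nephron fell at ZT4, above all those of the distal convoluted tubule. Of 26 genes of distal sodium and water transport 10 fell, against 16.4% of all genes, 16 did not pass and none rose. Their median was -0.44 at ZT4 and -0.12 over the other times. All 3 distal convoluted tubule markers fell. Slc12a3, the thiazide-sensitive sodium chloride cotransporter, was at 1693, 1325, 1386 and 1408 CPM in young mice and 792, 723, 698 and 632 CPM in nephritic mice (-1.03 ± 0.24 (adjusted p = 0.00139)). Pvalb, the calcium buffer parvalbumin of the early distal convoluted tubule, was at 373, 252, 228 and 324 CPM and 64.3, 89.9, 83 and 50.1 CPM (-2.03 ± 0.66 (adjusted p = 0.0162)), and Trpm6, a magnesium channel of the same segment, was at 70.2, 57.8, 61.7 and 60.5 CPM and 17.9, 18.3, 15.1 and 15.7 CPM (-1.90 ± 0.32 (adjusted p = 1.87e-05)). No young mouse was as low as any nephritic mouse in these genes, though Pvalb did not pass without nephritic mouse 4. Wnk4, a kinase that regulates the cotransporter, fell (-0.72 ± 0.17 (adjusted p = 0.00132)), as did Fxyd2, a subunit that modulates the sodium pump (-0.96 ± 0.21 (adjusted p = 0.000711)). Intercalated cell markers gave 2 of 5 lower and collecting duct principal cell markers 0 of 4, beside the same 16.4% of all genes.

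A separate set of large falls moved with liver RNA. A1bg, Hamp2, Cyp1a2, Cyp2c39, Cfhr2 and Orm1, genes mainly of the liver, fell, with log2 differences of -3.22 to -6.37, and in each of them young mouse 4 was the highest mouse. A1bg, for example, was at 0.649, 9.3, 9.55 and 82.7 CPM in young mice and 0.371, 0.231, 0.239 and 0.392 CPM in nephritic mice (-6.37 ± 1.57 (adjusted p = 0.00198)), and Hamp2, whose counts are uncertain because of its near-identical neighbour, at 1.43, 16.3, 14.2 and 126 CPM and 0.885, 1.13, 0.557 and 0.532 CPM. Alb, at 44.6, 296, 274 and 1966 CPM and 138, 178, 159 and 82.6 CPM, was likewise lowest in young mouse 1 and highest in young mouse 4, overlapped between groups and did not pass (-2.21 ± 1.26 (adjusted p = 0.18)). Of the 17 liver genes 4 passed as lower, against 16.4% of all genes. Without young mouse 4, Hamp2, Cyp1a2, Cyp2c39, Cfhr2 and Orm1 did not pass. A1bg passed without that mouse with a difference of -4.39 (adjusted p = 0.0282), and with a liver covariate at -2.97. Serpina6, which encodes corticosteroid-binding globulin, varied little among young mice, with 31.7, 23.8, 23.5 and 31.4 CPM in young mice and 1.68, 3.11, 3.52 and 5.01 CPM in nephritic mice (-3.05 ± 0.64 (adjusted p = 0.000368)). Thrsp, a regulator of lipid synthesis, was at 38.8, 22.5, 20.3 and 79.1 CPM and 4.37, 5.88, 5.86 and 5.43 CPM (-2.90 ± 0.82 (adjusted p = 0.00626)). The adipocyte markers Adipoq, Plin1 and Retn were also highest in young mice 1 and 4, with sums over the 6 adipocyte markers of 38.8 to 134 CPM in young and 16.8 to 45.1 CPM in nephritic mice, and 2 of the 6 fell.

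Stress and clearance lists are given beside the 13.9% of all genes that rose and the 16.4% that fell. Counts near those shares are no result about a list. The unfolded protein response gave 1 of 21 genes higher, heat shock and cold-inducible genes gave 2 of 19 lower, and NRF2 antioxidant genes gave 2 of 17 higher and 2 lower. Hspa8, the constitutive HSP70 chaperone, was at 1469, 1183, 1029 and 1268 CPM in young mice and 771, 669, 695 and 820 CPM in nephritic mice (-0.74 ± 0.19 (adjusted p = 0.00304)). Glucocorticoid response genes gave 3 of 18 higher and 1 lower. The lower gene, the sulphotransferase Sult1a1, was at 71.6, 98.5, 89.8 and 101 CPM and 37.1, 38.9, 38 and 34.6 CPM (-1.28 ± 0.29 (adjusted p = 0.000873)). Cytochrome P450 and conjugation genes gave 7 of 31 lower, against 16.4% of all genes, and 1 higher, Cyp1b1, an extrahepatic P450 (1.72 ± 0.31 (adjusted p = 5.47e-05)). Among 11 blood pressure genes that the study chose on these samples, and which are therefore not independent evidence, 4 rose and 1 fell. Edn1, the gene of the vasoconstrictor endothelin-1, rose from 1.91, 3.31, 2.37 and 1.6 CPM to 8.25, 6.83, 6.94 and 9.52 CPM (1.78 ± 0.57 (adjusted p = 0.0155)), though not without young mouse 4, and Avpr1a, a vasopressin receptor, fell from 20.6, 17.1, 17.5 and 19.6 CPM to 11.6, 11.4, 12.6 and 10.9 CPM (-0.69 ± 0.17 (adjusted p = 0.00166)).

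**Figure D3:**
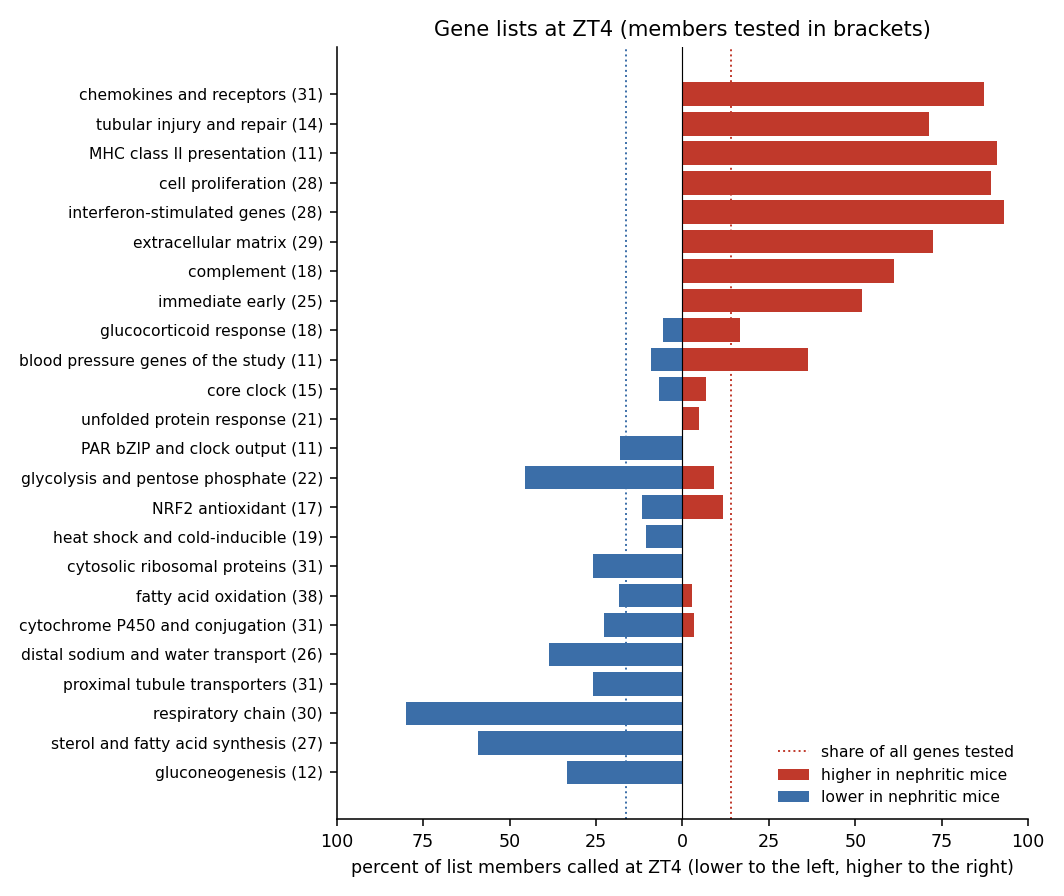
Percent of the members of each gene list that passed the test at ZT4 (x axis), with lower genes to the left and higher genes to the right, and the number of members tested in brackets. Inflammatory, proliferation and matrix lists extend to the right, whereas the respiratory chain (24 of 30 lower) and sterol and fatty acid synthesis (16 of 27 lower) extend to the left. Dotted lines mark the shares of all genes tested, 13.9% higher and 16.4% lower.

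Whether a difference belonged to ZT4 was tested directly, as the ZT4 difference minus the mean difference of the other 5 times. It passed for 666 genes (3.80%), with 184 genes higher at ZT4 than elsewhere (1.05%) and 482 lower (2.75%). The median of this contrast was 0.77 for the higher genes and -0.51 for the lower genes. Of the 184, 133 had risen at ZT4 and 80 were lower over the other times. Of the 482, 437 had fallen at ZT4 and 105 were higher over the other times. In 182 of the 184 and 480 of the 482, the ZT4 difference lay beyond that of each of the other 5 times. The genes were chosen by this contrast, so that position largely follows from the choice and is no added support. Over all genes the ZT4 level differed from that of the other 5 times in 1134 genes within young mice (6.47%) and in 496 within nephritic mice (2.83%). In 213 of the 482 lower genes the young level at ZT4 passed as above the young level of the other times, in 72 the nephritic level passed as below its own, in 5 of them both did and in 202 neither passed alone. These counts depended on single mice. Without young mouse 1, 3 higher and 7 lower genes passed, and without young mouse 4, 28 and 95 did. Without young mouse 2 the counts were 72 and 256, without any of the nephritic mice they were 19 to 80 and 38 to 160, and with nephritic mice 2 and 3 summed they were 43 and 119. The genes that passed also differed in transcript length, with a median of 4430 bases for higher and 2247 for lower genes against 3139 for all genes tested. The rank correlation of level with transcript length was -0.348 to -0.145 in young and -0.0122 to 0.214 in nephritic mice at ZT4. Its part in these calls was not tested beyond an offset for length and GC content, which gave 137 higher and 453 lower genes. Of these, 111 were among the 184 higher genes and 311 among the 482 lower genes. The nephritic mice of ZT4 were all high in Lcn2, whereas those of the other times were mixed. The part of injury in this contrast was not tested beyond an injury covariate, which gave 692 higher and 1194 lower genes.

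**Figure D4:**
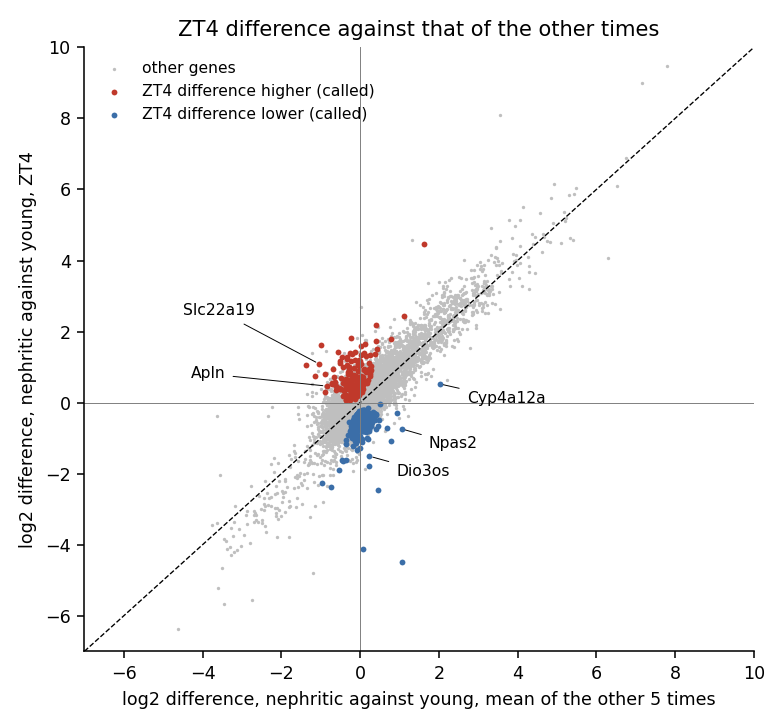
Log2 difference of genes, nephritic against young, at ZT4 (y axis) and over the mean of the other 5 times (x axis). Genes with a mean of at least 1 CPM in either group at ZT4 are shown. Those whose ZT4 difference passed as higher are in red and as lower in blue. The dashed line marks equal differences, with the red genes above it and the blue genes below it. Members of the 184 higher and 482 lower genes that did not reach 1 CPM are not drawn.

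Some of these genes differed little between groups at other times and separated only modestly but evenly at ZT4. Rhoq, a small GTPase of the Cdc42 group (chr17:86963082-87000069, plus strand, GRCm38.p6), was at 43, 49.1, 43.7 and 42.5 CPM in young mice and 60.6, 57.8, 58.5 and 66.5 CPM in nephritic mice. Its log2 difference was 0.45 ± 0.09 (adjusted p = 0.00012) at ZT4 and -0.06 over the other times, so that the contrast was 0.51 ± 0.09 (adjusted p = 0.00553). Every nephritic mouse exceeded every young mouse. Within young mice Rhoq was lower at ZT4 than at the other times (-0.30, adjusted p = 0.00563), whereas within nephritic mice the corresponding value was 0.21 (adjusted p = 0.0683). Cd55, decay-accelerating factor, which protects cells from complement (chr1:130439027-130462744, minus strand), was at 5.19, 4.65, 5.1 and 5.89 CPM and 9.19, 11.2, 12.2 and 12 CPM, with 0.02 over the other times and a contrast of 1.07 ± 0.22 (adjusted p = 0.0086). Itprip, which encodes an inositol trisphosphate receptor-interacting protein, was at 6.21, 8.36, 8.06 and 6.61 CPM and 16.3, 12.2, 12.7 and 13.6 CPM, with a contrast of 0.77 ± 0.17 (adjusted p = 0.0135). The groups were apart in both genes. Rps6ka2, a ribosomal S6 kinase, and Klhl5 and Rhbdd1, a kelch-like and a rhomboid domain gene, had contrasts of 0.81, 0.41 and 0.52.

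Other genes of the higher group were low in nephritic kidneys at other times and not at ZT4. Apln, the gene of the vasodilator peptide apelin (chrX:48025146-48034853, minus strand), was at 14, 16.2, 15.4 and 17.8 CPM in young mice and 18.3, 20.2, 22.1 and 27 CPM in nephritic mice at ZT4, a difference of 0.47 ± 0.25 (adjusted p = 0.146). Over the other times it was lower in nephritic mice (-0.85, adjusted p = 6.25e-09), and the contrast was 1.31 ± 0.27 (adjusted p = 0.00914). The medians of nephritic mice were 10.6 CPM at ZT0, 21.1 CPM at ZT4 and 8.65 CPM at ZT16 for Apln. At ZT4 the nephritic mice thus lay just above the young mice, without overlap. Tmem169, a transmembrane protein gene, followed the same course (0.59 at ZT4, -0.63 over the other times, contrast 1.22 ± 0.27 (adjusted p = 0.0128)). Slc22a19, an organic anion transporter of the proximal tubule, was at 77.1, 120, 109 and 114 CPM and 179, 198, 207 and 308 CPM at ZT4 and -1.04 over the other times, with a contrast of 2.12 ± 0.64 (adjusted p = 0.0471). Cd36 was at 60.9, 65.5, 60.4 and 71.8 CPM and 95.3, 98, 97.7 and 121 CPM at ZT4 and -0.36 over the other times, with a contrast of 1.03 ± 0.27 (adjusted p = 0.0271). Gclm, a subunit of the enzyme that starts glutathione synthesis, had a contrast of 0.59 ± 0.17 (adjusted p = 0.043). The groups did not overlap at ZT4 for any of these genes, but Slc22a19 and Gclm lost the call when any of the 8 libraries of ZT4 was left out. Cd36 kept the call against the other times in 17 of 25 alternatives. It lost it without young mouse 1, 2 or 4, without nephritic mouse 1, 2 or 4, with nephritic mice 2 and 3 summed, and without ZT12.

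Genes with a lower difference at ZT4 included a growth factor receptor, a noncoding RNA and genes of RNA processing. Erbb2, a receptor tyrosine kinase of the epidermal growth factor receptor family (chr11:98412470-98437716, plus strand), was at 168, 151, 152 and 156 CPM in young mice and 107, 98.3, 99.6 and 92.7 CPM in nephritic mice (-0.66 ± 0.09 (adjusted p = 5.15e-07)). Over the other times its difference was -0.14 and the contrast was -0.52 ± 0.10 (adjusted p = 0.00553). Dio3os, a noncoding transcript beside the thyroid hormone deiodinase gene Dio3 (chr12:110275385-110278172, minus strand), was at 5.39, 5.18, 5.42 and 4.58 CPM and 1.6, 2.21, 1.86 and 1.57 CPM, with 0.23 over the other times and a contrast of -1.74 ± 0.32 (adjusted p = 0.00553). It was the nephritic level of Dio3os that stood apart from its own other times (-1.45, adjusted p = 0.00083), while in young mice the value was 0.29 (adjusted p = 0.464). Mif4gd, a gene of translation of histone transcripts, was at 91.2, 82.8, 78.9 and 77.5 CPM and 68.5, 69, 70.1 and 58.9 CPM (-0.31 ± 0.09 (adjusted p = 0.00528)), higher in nephritic mice over the other times (0.21), with a contrast of -0.52 ± 0.09 (adjusted p = 0.00553). Rhoq, Mif4gd, Erbb2 and Dio3os kept the call against the other times in all 25 alternatives, although Mif4gd did not pass at ZT4 itself without nephritic mouse 4. The groups did not overlap at ZT4 in these genes. Sphk2, a sphingosine kinase, was at 111, 89.5, 86.3 and 99.9 CPM and 66.4, 61.1, 65.3 and 60.4 CPM, with a contrast of -0.65 ± 0.12 (adjusted p = 0.00553). Ints1, a subunit of the integrator complex, Eps8l2, an actin regulator of epithelia, Irf2bp2, a transcription corepressor, Wdr24, a subunit of the GATOR2 nutrient-sensing complex, Cct7, a chaperonin subunit, and Klhdc3, a kelch domain gene, had contrasts of -0.39 to -0.58. Against the other times, Sphk2, Ints1, Eps8l2, Wdr24, Cct7 and Klhdc3 lost the call without young mouse 1. So did Cd55, Itprip, Rps6ka2, Klhl5, Rhbdd1, Apln and Tmem169. Irf2bp2 lost it without nephritic mouse 4.

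Genes of the distal nephron appeared again in this test. Trpm6 had a ZT4 contrast of -1.36 ± 0.34 (adjusted p = 0.023), with a nephritic level below its own other times (-1.08, adjusted p = 0.0174). Calb1, which encodes the calcium buffer calbindin-D28k of the distal tubule, was chosen after its values were seen. It was at 833, 641, 549 and 907 CPM in young mice and 154, 151, 148 and 116 CPM in nephritic mice at ZT4 (-2.37 ± 0.35 (adjusted p = 2.14e-06)), and its contrast was -1.62 ± 0.37 (adjusted p = 0.0156). S100g, calbindin-D9k of the same cells and likewise chosen after its values were seen, was at 737, 700, 574 and 600 CPM and 222, 227, 226 and 173 CPM (-1.62 ± 0.30 (adjusted p = 6.92e-05)), with a contrast of -1.27 ± 0.32 (adjusted p = 0.0233). Nephritic mice were below all young mice in both, and nephritic mouse 4 lay apart from the other nephritic mice as the lowest. Without that mouse neither contrast passed. The difference of Calb1 was -0.91 at ZT0, -0.41 at ZT8, -1.54 at ZT12, -1.08 at ZT16 and 0.18 at ZT20, so ZT12 was nearest to ZT4 and ZT20 farthest. Slc12a3 had a contrast of -0.87 and did not pass (adjusted p = 0.0503).

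Salt and water transport genes of other distal segments also passed. Aqp2, the vasopressin-regulated water channel of the collecting duct, was at 687, 653, 556 and 664 CPM in young mice and 525, 356, 416 and 338 CPM in nephritic mice (-0.65 ± 0.27 (adjusted p = 0.0604)), was higher in nephritic mice over the other times (0.45, adjusted p = 0.000709) and had a contrast of -1.10 ± 0.29 (adjusted p = 0.0294). Scnn1b, a subunit of the epithelial sodium channel, was at 146, 105, 103 and 120 CPM and 101, 81.3, 81.9 and 73.5 CPM, 0.30 over the other times, with a contrast of -0.79 ± 0.23 (adjusted p = 0.0433). Nephritic mice were all below young mice in Aqp2 and Scnn1b at ZT4. Fxyd2 (-0.78 ± 0.23 (adjusted p = 0.0434)), Atp6v1g3, a proton pump subunit of intercalated cells (-0.79 ± 0.21 (adjusted p = 0.0316)), and Avpr1a (-0.82 ± 0.18 (adjusted p = 0.0128)) passed too. In all, 4 of 26 distal transport genes passed as lower in this test, against 2.75% of all genes, and none as higher. Without young mouse 1, and likewise without nephritic mouse 4, none of these distal genes passed against the other times. With nephritic mice 2 and 3 summed Trpm6, S100g, Aqp2, Scnn1b, Fxyd2 and Atp6v1g3 lost the call while Calb1 and Avpr1a kept it.

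Sterol and sugar metabolism supplied further members. Of 27 sterol and fatty acid synthesis genes 4 were lower at ZT4 than elsewhere, against 2.75% of all genes, among them Srebf2 (-0.40 ± 0.10 (adjusted p = 0.0248)) and Fdft1 (-0.53 ± 0.16 (adjusted p = 0.0498)). In young mice Srebf2 had its highest median at ZT4, 154 CPM against 112 CPM at ZT12, whereas the nephritic medians were 105 and 95.4 CPM. Neither gene passed against the other times without young mouse 1 or 4 or any of the 4 nephritic mice. Among glycolysis and pentose phosphate genes, Gpi1, glucose phosphate isomerase, was at 721, 601, 527 and 654 CPM in young mice and 451, 426, 449 and 416 CPM in nephritic mice (-0.52 ± 0.10 (adjusted p = 0.000114)), -0.02 over the other times, with a contrast of -0.50 ± 0.11 (adjusted p = 0.0128). Taldo1 (-0.49), Tpi1 (-0.40) and Ldha (-0.33) passed in the same direction, 4 of 22 in all. The groups did not overlap in any of the 4, but all 4 lost the call against the other times without young mouse 1 or without nephritic mouse 4. Cytosolic ribosomal protein genes gave 10 of 31 lower in this test, against 2.75% of all genes, and none higher. They were higher in nephritic mice over the other times in 17 of 31 genes, against 26.2% of all genes, with a median of 0.16. At ZT4 they were lower in 8, against 16.4% of all genes, with a median of -0.32. Of these 8, Rpl11 and Rpl13 lost the call at ZT4 when any library of ZT4 was left out. Rplp1, an acidic protein of the large subunit stalk, was at 1419, 1397, 1150 and 1532 CPM and 802, 947, 1021 and 896 CPM (-0.58 ± 0.21 (adjusted p = 0.0269)), with a contrast of -0.79 ± 0.22 (adjusted p = 0.0379). Rplp1 lost the call at ZT4 without young mouse 1 or 4 or nephritic mouse 1, 2 or 4. Ribosomal protein genes are short and have many near-identical copies in the genome, so their counts are uncertain. With the length and GC offset 2 of the 31 passed against the other times, and 5 fell and 1 rose at ZT4. With nephritic mice 2 and 3 summed none of the 31 passed against the other times, and 6 fell at ZT4.

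Few genes were opposite in sign. Altogether 91 genes passed at ZT4 in 1 direction and over the other times in the other, 30 of them higher at ZT4 and 61 lower. Jph1, a junctophilin, was at 1.09, 1.74, 1.52 and 1.15 CPM in young mice and 2.94, 3.11, 2.52 and 2.38 CPM in nephritic mice (0.99 ± 0.25 (adjusted p = 0.00208)), and -0.27 over the other times. Rev1, a polymerase of translesion synthesis, was at 7.58, 8.53, 8.02 and 8.64 CPM and 12, 12.8, 12.4 and 13.4 CPM (0.62 ± 0.17 (adjusted p = 0.00403)), and -0.20 over the other times. Both were higher in every nephritic mouse at ZT4. Tmem41a, Gpaa1, part of the enzyme complex that attaches GPI anchors, and Palm3, a paralemmin, fell at ZT4 (-0.59, -0.40 and -0.69) and rose over the other times (0.18, 0.10 and 0.22). Over the other times the differences of these 5 genes lay between -0.27 and 0.22. Without young mouse 1 none of the 5 passed against the other times.

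Few core clock genes passed at ZT4 with all libraries fitted, where 30.3% of all genes did. More of them passed without nephritic mouse 3 of ZT8, as given below. In 10 of the 15 the groups did not overlap at ZT4, against 44.3% of all genes. Of 15 core clock genes 1 rose, Cry1, and 1 fell, Cry2, both transcriptional repressors. Cry1 was at 2.7, 2.48, 2.69 and 2.98 CPM in young mice and 3.85, 4.16, 4.08 and 5.21 CPM in nephritic mice (0.67 ± 0.26 (adjusted p = 0.0455)), and Cry2 at 34.2, 33.3, 35.1 and 32.2 CPM and 29, 23.5, 22.5 and 20.5 CPM (-0.50 ± 0.19 (adjusted p = 0.043)). Neither overlapped between groups, but both lost the call without any of the 4 young mice or without nephritic mouse 2 or 4, and Cry2 also under several other settings. Arntl was at 16.2, 18.6, 19.1 and 14.3 CPM and 9.99, 9.52, 9.91 and 11.8 CPM, a difference of -0.73 ± 0.32 (adjusted p = 0.0802), and Npas2 at 11.8, 12.2, 13.2 and 11.1 CPM and 6.02, 6.49, 7.16 and 9.32 CPM (-0.74 ± 0.37 (adjusted p = 0.124)). Per3 was at 21.6, 25.9, 28.1 and 24.9 CPM in young mice and 40.4, 33.6, 32.4 and 32.2 CPM in nephritic mice (0.46 ± 0.26 (adjusted p = 0.163)). These 3 genes did not overlap between the groups at ZT4 either, yet none passed there. All 3 passed against the other times, with contrasts of -1.40 ± 0.35 (adjusted p = 0.0233) for Arntl, -1.80 ± 0.41 (adjusted p = 0.0159) for Npas2 and 1.07 ± 0.28 (adjusted p = 0.0272) for Per3.

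The time courses gave the values behind these contrasts. In young mice Arntl had medians of 37.6 CPM at ZT0, 17.4 at ZT4, 1.16 at ZT8 and 2.85 at ZT12, and in nephritic mice of 29.3, 9.95, 3.39 and 10.2 CPM. The nephritic level was thus below the young level while the transcript was declining and above it at the trough. The log2 differences of Arntl were -0.60, -0.73, 2.53, 1.73, 0.40 and -0.67 from ZT0 to ZT20, and those of Npas2 were -0.50, -0.74, 2.47, 2.38, 1.52 and -0.59. ZT4 was therefore close to ZT0 and ZT20 and unlike ZT8 and ZT12. Per3, in the opposite phase, had differences of 0.18, 0.46, -0.88, -0.91, -1.86 and 0.46. For Arntl the call was lost without ZT8 or ZT12 among the other times and for Per3 without ZT16. Leaving out young mouse 1 or nephritic mouse 1 or 2 of ZT4 ended the call of all 3 genes. At ZT8 nephritic mouse 3 stood apart in clock genes, with Arntl at 18 CPM against 2.12 to 3.73 CPM in the other 3, Npas2 at 17 against 1.43 to 2.49 CPM and Per3 at 10.8 against 56.6 to 62.3 CPM, and whether its time label is right was not tested. Without this mouse the ZT8 differences were 1.38 ± 0.27 for Arntl, 0.94 ± 0.28 for Npas2 and -0.51 ± 0.19 for Per3. The contrasts against the other times were then -1.14 (adjusted p = 0.00958) for Arntl, -1.45 (adjusted p = 0.0033) for Npas2 and 1.03 (adjusted p = 0.0084) for Per3. At ZT4 itself 4 clock genes rose without it, Per2 (0.69), Per3 (0.51), Cry1 (0.72) and Bhlhe41 (0.59), and 3 fell, Arntl (-0.68), Npas2 (-0.69) and Cry2 (-0.45). Over all 17507 genes then tested, 2784 rose and 2200 fell. With this mouse included, the other core clock genes passed in neither test, with Per1 at 13, 23.1, 23.2 and 22.1 CPM and 56.6, 26.1, 27.4 and 36.6 CPM (0.85 ± 0.40 (adjusted p = 0.0971)) and Nr1d1 at 111, 106, 109 and 112 CPM and 71.5, 58.9, 59.4 and 44.8 CPM (-0.90 ± 0.38 (adjusted p = 0.0636)).

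**Figure D5:**
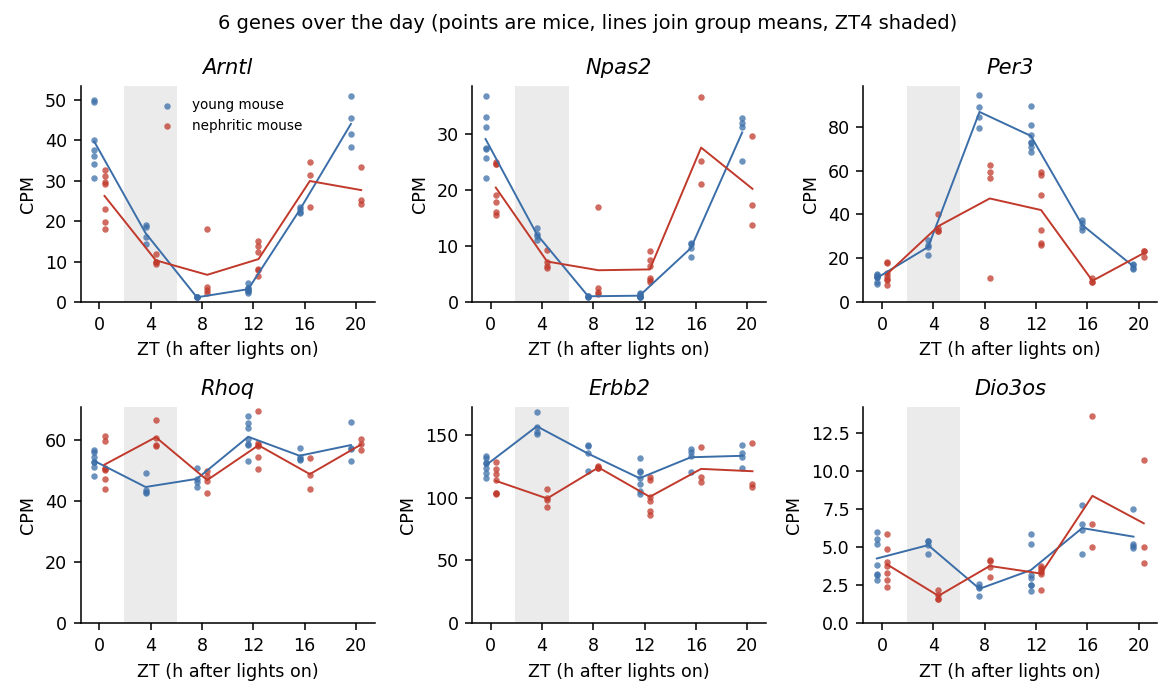
Levels of Arntl, Npas2, Per3, Rhoq, Erbb2 and Dio3os in each mouse (y axis, CPM) by time of collection (x axis, hours after lights on), with young mice in blue, nephritic mice in red, lines through group means and ZT4 shaded. The Arntl, Npas2 and Per3 lines cross between ZT4 and ZT8, whereas for Rhoq, Erbb2 and Dio3os the groups lie farther apart at ZT4 than at the neighbouring times.

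Promoter sequences of Per3, Cry1, Npas2 and Arntl, 4 of the 5 clock genes that passed a test, are shown because the clock acts through short elements near the start site. They are RefSeq sequences of GRCm38.p6, and 12 of the 15 core clock genes had a window of 250 bases before to 50 bases after a start site. Both strands were searched for the D-box TTATGTAA, the E-box CACGTG and the ROR half-site AGGTCA, and capitals mark a match. Per3 is shown for the 250 bases before its start (chr4:151044666-151044915, minus strand), Cry1 likewise (chr10:85185055-85185304, minus strand) and Npas2 likewise (chr1:39194022-39194271, plus strand). For Arntl 30 bases are shown around a match 31 bases after its downstream start site (chr7:113207530-113207559, plus strand).
Per3: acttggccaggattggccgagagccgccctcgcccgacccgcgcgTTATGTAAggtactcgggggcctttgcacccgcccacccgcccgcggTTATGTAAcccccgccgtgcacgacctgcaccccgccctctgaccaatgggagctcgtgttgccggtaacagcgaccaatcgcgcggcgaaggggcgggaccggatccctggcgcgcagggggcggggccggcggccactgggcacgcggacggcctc
Cry1: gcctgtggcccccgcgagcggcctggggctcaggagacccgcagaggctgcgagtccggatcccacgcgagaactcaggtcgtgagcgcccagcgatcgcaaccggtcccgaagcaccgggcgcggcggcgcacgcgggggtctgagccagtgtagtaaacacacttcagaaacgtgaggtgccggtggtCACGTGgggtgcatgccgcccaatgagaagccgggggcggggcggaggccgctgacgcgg
Npas2: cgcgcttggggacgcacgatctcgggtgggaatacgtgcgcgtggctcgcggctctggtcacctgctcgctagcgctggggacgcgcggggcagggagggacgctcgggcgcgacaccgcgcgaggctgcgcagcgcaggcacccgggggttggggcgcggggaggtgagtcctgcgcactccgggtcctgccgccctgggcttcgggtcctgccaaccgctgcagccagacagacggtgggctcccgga
Arntl: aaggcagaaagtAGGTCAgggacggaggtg
The D-box matched at 205 and 158 bases before the start of Per3, the E-box at 60 bases before the start of Cry1, and none of the 3 in the Npas2 window or in that of Cry2, the other clock gene that passed, which is not shown. Of 32851 promoter windows of the same length, 0.938% held the D-box and 0.0213% held it at least 2 times, 7.15% held the E-box and 16.3% the half-site. A match is a description of letters and not a measured binding site.

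Set against single times, the ZT4 difference passed as unlike that of ZT0 for 782 genes (4.46%), of ZT12 for 679 (3.88%), of ZT16 for 189 (1.08%), of ZT8 for 34 (0.194%) and of ZT20 for 2 (0.0114%). At an unadjusted p under 0.05 the counts were 4153, 3767, 3622, 2888 and 1804 in the same order. Groups were larger at ZT0 and ZT12 and smaller at ZT20, so the order of these counts follows the number of mice as well as the size of the differences. Sele, which encodes the endothelial adhesion molecule E-selectin and was chosen after its values were seen, had a positive difference at each of the 6 times, the largest of them at ZT4. It was at 0.0683, 0.1, 0.201 and 0.164 CPM in young mice and 3.22, 2.82, 2.39 and 3.61 CPM in nephritic mice (4.47 ± 0.60 (adjusted p = 4.18e-07)), 1.62 over the other times, with a contrast of 2.86 ± 0.63 (adjusted p = 0.0135). Plod2, a collagen lysyl hydroxylase chosen in the same way, was at 17.3, 21.8, 19.5 and 18.8 CPM and 44.9, 46.2, 48.3 and 58 CPM (1.35 ± 0.27 (adjusted p = 0.000195)), 0.04 over the other times, with a contrast of 1.32 ± 0.29 (adjusted p = 0.0135). Neither gene overlapped between the groups at ZT4, and both lost the call against the other times without young mouse 1.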

How the data were processed

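Poly(A) RNA of whole kidneys was sequenced on an Illumina HiSeq instrument. The deposited values are raw read counts per gene symbol, 1 table per library. The authors counted reads aligned uniquely to mm10 exons and splice junctions with at most 2 mismatches; the aligner is HISAT in the submitters' processing notes and a Burrows-Wheeler aligner in the study's methods. Of 24538 symbols, 15 were empty. Groups came from the diagnosis and time labels. The 12 remission and repeat libraries were left out, and 57 libraries were fitted.

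Counts were normalised by TMM and fitted with edgeR 4.0.16 (R 4.3.3, glmQLFit and glmQLFTest) with 12 group by time means and a library set as covariate, inferred from title prefixes and named nowhere in the labels (11 libraries of ZT0 and ZT12 were of set 1, none of ZT4). All ZT4 contrasts share this fit, and Benjamini-Hochberg adjustment ran over all 17521 genes. CPM were computed from TMM library sizes. Alternatives used limma 3.58.1, DESeq2 1.42.0, other filters, covariates, library sets and thresholds. Length and GC offsets, a liver covariate, the summing of nephritic mice 2 and 3 and leaving out nephritic mouse 3 of ZT8 were chosen after seeing the data, as was the liver list. Each library holds at least 25257530 counts, so low genes limit precision, and intervals cover these libraries only. Scripts were tested on simulated data.

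Named genes were, at a mean of at least 1 CPM, the 8 largest differences each way at ZT4 without overlap, the 10 smallest p each way for the ZT4 contrast, 5 genes of opposite sign, and up to 4 members per list by smallest p, all core clock genes and any list member passing the contrast. Members and the 25 functional and 20 marker lists were chosen with earlier results of these data known. Genes on chromosome 18 and some others were counted but are not reported here singly. Promoter sequences are from RefSeq, GRCm38.p6.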

Additional observations from a re-analysis of the deposited data

Results flagged for a closer look

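A mouse lay far from the other 3 of its group at ZT4 in 30 of 366 groups examined, by a gap to its neighbour that exceeded Dixon's critical share of the group's range. Chance gives such a mouse in about 5% of groups, or 1 in 20. In young mice the liver-expressed genes stood out together, with the highest mouse at 82.7 CPM for A1bg, 126 CPM for Hamp2, 7.23 CPM for Cyp1a2, 10.2 CPM for Cyp2c39, 4.94 CPM for Cfhr2, 16.8 CPM for Orm1, 11.3 CPM for Ces3a and 1966 CPM for Alb, each time young mouse 4. Other young mice far above the rest were at 61.5 CPM for Palm3, 14.9 CPM for Loxl2, 228 CPM for Got1, 0.655 CPM for Acta1 and 0.0335 CPM for Mmp7, which is a single count. The lowest young mouse stood apart in Per1 at 13.0 CPM.

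In nephritic mice the highest mouse stood apart in Per2 (26.5 CPM), Klf4 (18.4 CPM), Egr2 (7.65 CPM), Ddit4 (53.3 CPM), Fbn1 (28.6 CPM), Got1 (143 CPM) and Col1a1 (107 CPM), each time mouse 1, and in Hmox1 (33.5 CPM) and Cd36 (121 CPM), each time mouse 4. The lowest mouse stood apart in Hadhb (196 CPM), Atp5o (310 CPM) and Rpl8 (528 CPM), each time mouse 1, and in Mif4gd (58.9 CPM), Bhlhe41 (6.13 CPM), Calb1 (116 CPM) and S100g (173 CPM), each time mouse 4.

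For 56 named genes the test of the difference itself passed, the ZT4 difference minus the mean difference of the other 5 times. Higher at ZT4 than elsewhere, on the log2 scale, were Sele (2.86), Slc22a19 (2.12), Plod2 (1.32), Apln (1.31), Jph1 (1.26), Tmem169 (1.22), Cd55 (1.07), Per3 (1.07), Cd36 (1.03), Rev1 (0.82), Rps6ka2 (0.81), Itprip (0.77), Gclm (0.59), Rhbdd1 (0.52), Rhoq (0.51) and Klhl5 (0.41).

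Lower at ZT4 than elsewhere were the clock genes Npas2 (-1.80) and Arntl (-1.40), the distal nephron genes Calb1 (-1.62), Trpm6 (-1.36), S100g (-1.27), Aqp2 (-1.10), Scnn1b (-0.79), Atp6v1g3 (-0.79) and Fxyd2 (-0.78), and the vasopressin receptor gene Avpr1a (-0.82). Lipid and sugar genes were Fdft1 (-0.53), Srebf2 (-0.40), Gpi1 (-0.50), Taldo1 (-0.49), Tpi1 (-0.40) and Ldha (-0.33). Detoxification genes were Cyp4a12a (-1.49) and Gstp1 (-0.56), both with near-identical neighbours. Ribosomal protein genes were Rplp1 (-0.79), Rpl13 (-0.66), Rpl8 (-0.64), Rpl32 (-0.63), Rpl11 (-0.56), Rps2 (-0.52), Rpl5 (-0.51) and Rpl10 (-0.45). The remaining genes were Dio3os (-1.74), Palm3 (-0.92), Jund (-0.80), Tmem41a (-0.78), Sphk2 (-0.65), Eps8l2 (-0.58), Irf2bp2 (-0.53), Mif4gd (-0.52), Erbb2 (-0.52), Klhdc3 (-0.51), Gpaa1 (-0.49), Ints1 (-0.49), Wdr24 (-0.47) and Cct7 (-0.39).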

How the results depend on the processing

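Against 2442 higher and 2871 lower genes at ZT4, limma-voom gave 4195 and 5318, the 8 libraries of ZT4 fitted alone gave 4226 higher genes, a threshold of 0.01 gave 1523 and 1453, and a log2 difference of at least 1 either way gave 1449 and 273. Leaving out 1 library gave 1925 to 2784 higher and 1634 to 2527 lower genes. DESeq2, other filters, no set covariate, an injury covariate, a liver covariate, and length and GC offsets kept both counts within 1.5 times. Against 184 higher and 482 lower genes for the ZT4 difference minus that of the other times, limma-voom gave 1611 and 2214, an injury covariate 692 and 1194, DESeq2 439 higher, no filter 297 lower, without the 11 libraries of set 1 it was 234 lower, nephritic mice 2 and 3 summed 43 and 119, and a threshold of 0.01 gave 4 and 22. Without ZT0 among the other times it was 92 and 246, without ZT16 72 and 218, and without ZT20 290 and 768. Leaving out 1 library gave 3 to 190 and 7 to 524, with the lowest counts without young mouse 1. The cause of these moves was not tested, apart from the fewer genes that a stricter threshold passes. No result reversed. Of 158 named genes called at ZT4, 125 kept the call under every alternative run, and of 56 called against the other times 4 did. No paired analysis was possible because the labels give no replicate numbers that groups share. Genes of low count or wide spread between the 4 mice of a group can miss the threshold.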

Other observations

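Markers of tissues beside the kidney were low or variable at ZT4. The summed CPM of 7 adrenal cortex markers was 6.15 to 8.79 in young and 5.94 to 7.19 in nephritic mice, and that of 5 adrenal medulla markers 0.160 to 0.301 and 0.212 to 0.385, with no gene of either list called. Brown adipocyte markers gave no call among 4 genes, with sums of 34 to 60.7 CPM in young and 15.3 to 34.3 CPM in nephritic mice. Of 4 pancreas and gut markers Cela1, which the kidney also expresses, fell from 219, 168, 160 and 213 CPM to 91.7, 102, 108 and 101 CPM (-0.92 ± 0.25 (adjusted p = 0.00467)), and of 3 skeletal muscle markers Acta1 passed as lower at under 1 CPM in every mouse. The 1 erythroid marker tested did not pass, and 4 haemoglobin genes were not analysed here. Gapdh varied from 9.11 to 191 CPM among the 8 mice, and its counts are uncertain because of its many near-identical copies.

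Clock output genes and 2 further segments are given beside the 16.4% of all genes that fell at ZT4. Of 11 PAR bZIP and clock output genes 2 fell at ZT4 and none rose, with a list median of -0.20. Over the other times 9 were lower, against 31.7% of all genes. Gne, an enzyme of sialic acid synthesis in that list, fell from 55.6, 49.6, 47.7 and 50.9 CPM to 36, 35.8, 35.4 and 35.5 CPM (-0.51 ± 0.13 (adjusted p = 0.00216)). Thick ascending limb markers gave 1 of 4 lower, Kcnj1, a potassium channel, from 404, 348, 331 and 397 CPM to 277, 224, 223 and 249 CPM (-0.60 ± 0.17 (adjusted p = 0.00682)). Of 5 proximal tubule markers Slc34a1 fell from 6987, 5946, 5518 and 6343 CPM to 2964, 3229, 3301 and 2410 CPM (-1.06 ± 0.37 (adjusted p = 0.0242)), though not without young mouse 1 or any of the nephritic mice. None of these genes overlapped between groups.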
